A study of Homo sapiens with 6 samples.

Results

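Transcript levels of 10 genes of retinoic acid metabolism and signalling were examined in undifferentiated H9 human embryonic stem cells (hESCs) and in the neuromesodermal progenitor-like (NMP-L) cells made from them. The genes were chosen by symbol for their place in the pathway, and all 10 were found among the 27672 genes measured. They are the retinoic acid degrading enzymes CYP26A1, CYP26B1 and CYP26C1, the synthesis enzymes ALDH1A2 and ALDH1A3, the retinal reductase DHRS3, the binding protein CRABP2 and the receptors RARA, RARB and RARG. RNA-seq of polyadenylated RNA was available for 3 hESC libraries and 3 NMP-L libraries, which the labels call biological replicates without saying whether they came from separate cultures, so p-values measure the spread between these libraries. H9 is an established human ES cell line. Per the labels, the hESCs (day 0, untreated) were grown without feeder cells on fibronectin, in medium with 30 ng/ml bFGF as well as Noggin at 10 ng/ml, whereas the study's methods name another medium and coating. NMP-L cells (day 3) had spent 3 days in neurobasal medium with the N2 and B27 supplements, with bFGF at 20 ng/ml and CHIR99021 at 3 µM, an inhibitor of GSK3 that activates Wnt signalling. The study's methods also describe inhibitors of BMP and TGFβ signalling from the second to the fourth day on the way to neural progenitors, and the labels of the NMP-L libraries list neither. No retinoid is listed among the additions to either culture, and the sources used here do not say whether the B27 supplement contained vitamin A.

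Retinoic acid is a small lipophilic signal made from vitamin A. Cells take up retinol, oxidise it reversibly to retinal and then irreversibly to retinoic acid, and remove retinoic acid by hydroxylation with CYP26 enzymes. Retinoic acid binds RAR receptors, which pair with RXR receptors on DNA and exchange corepressors for coactivators when the ligand is present. In vertebrate embryos the caudal end of the body axis, where neuromesodermal progenitors reside, is kept low in retinoic acid by CYP26 enzymes, while ALDH1A2 in the neighbouring somites makes the retinoic acid that promotes spinal cord differentiation.

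The best known response elements of RAR and RXR pairs are direct repeats of a 6-base core separated by 5 bases (DR5) or 2 bases (DR2). Both strands of the GRCh37 sequence within 5 kb of each gene's canonical transcript start were searched for such repeats. The cores allowed, in any combination, were the consensus AGGTCA together with its common variants AGTTCA, or alternatively GGGTCA, or else GGTTCA. DR5 letters were found at 2 of the 10 genes, at 3 positions upstream of CYP26A1 and at 1 position upstream of RARB, the genes that are textbook examples of direct retinoic acid targets. The sequences are shown because CYP26A1 was the gene whose transcripts fell furthest among the 10. The cores are in capitals, and each sequence is written 5′ to 3′ along the strand that carries the repeat.
CYP26A1 distal, chr10:94830279-94830295, minus strand, 3363 bases upstream: tcttctGGTTCActaagGGGTCAgctcag
CYP26A1 middle, chr10:94831674-94831690, plus strand, 1968 bases upstream: ctgcagGGGTCAcaggcGGGTCAggcccg
CYP26A1 proximal, chr10:94833560-94833576, minus strand, 82 bases upstream: acaattAGTTCAcccaaAGTTCAtcttta
RARB proximal, chr3:25469701-25469717, plus strand, 45 bases upstream: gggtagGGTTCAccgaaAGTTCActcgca

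Coordinates cover the repeat itself without its flanks. The proximal repeats at CYP26A1 and RARB share the second core, and both lie within an exon of another annotated transcript of the same gene. Of 19889 windows of the same length around protein-coding genes, 446 (2.24%) held a DR5 and 4 held at least 3 of them, CYP26A1 included. In the shorter RefSeq promoters (GRCh38.p14, 250 bases before to 50 bases after the start), 31 of 35116 (0.0883%) held a DR5, and among the 19 promoters listed for the 10 genes these were 1 of CYP26A1 and 1 of RARB. DR2 letters lay within 5 kb of CYP26A1, ALDH1A2 and CRABP2, but 36.8% of all windows held them. Elements at CYP26A1 and RARB are among those from which these letters are known, so their matches are a description, and the shares of all windows are no test of them. A match describes letters only and was not tested for binding.

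**Figure D1:**
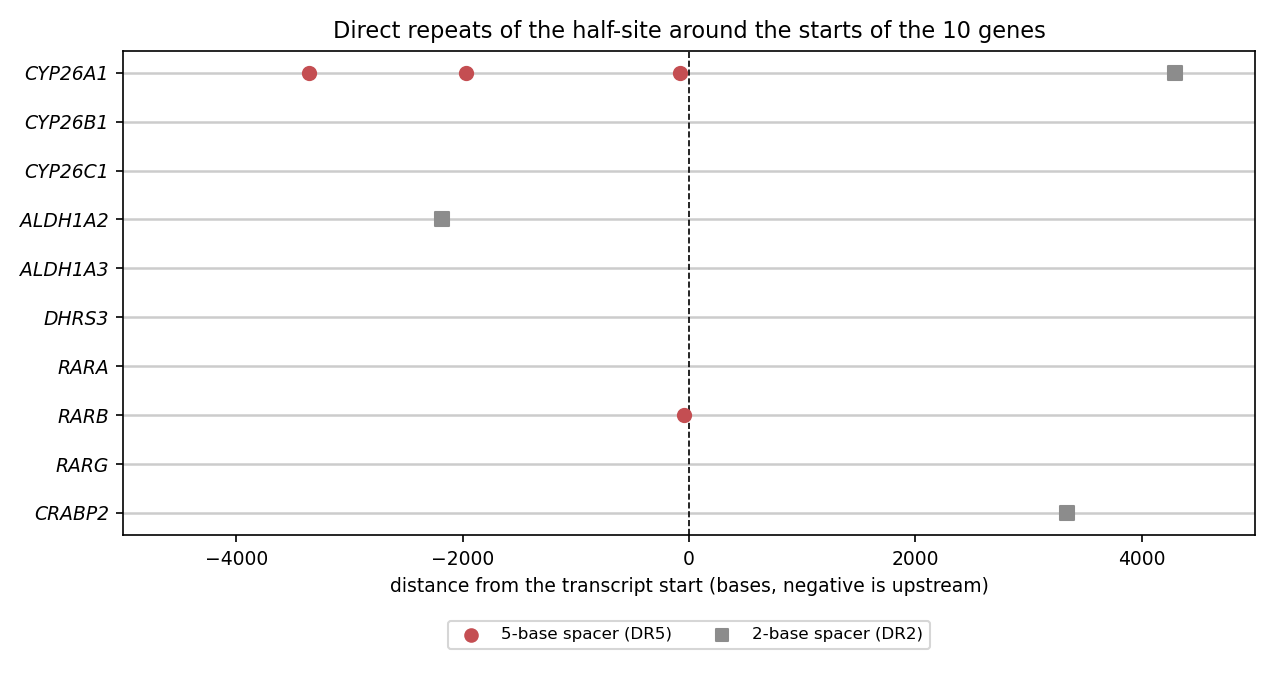
Positions of DR5 (circles) and DR2 (squares) letters within 5 kb of the start of each gene, as distance in bases with upstream negative. CYP26A1 carries 3 DR5 upstream and RARB carries 1, and the DR5 circles nearest a start lie 82 and 45 bases from it.

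Gene positions given here are those of the canonical transcripts. With all annotated transcripts some genes reach further, RARB from chr3:24729378 and CYP26A1 from chr10:94833232. CYP26A1 and its neighbour CYP26C1 lie on the plus strand of chromosome 10 (GRCh37), CYP26C1 at chr10:94820555-94829297 and CYP26A1 at chr10:94833650-94837642. The gap between these canonical transcripts is 4353 bases, and the distal CYP26A1 repeat starts 982 bases beyond the end of CYP26C1. The other genes lie on other chromosomes, CYP26B1 at chr2:72356367-72374991, ALDH1A2 at chr15:58245627-58357909, ALDH1A3 at chr15:101420036-101456831, DHRS3 at chr1:12627939-12678216, CRABP2 at chr1:156669398-156675375, RARA at chr17:38465432-38513895, RARB at chr3:25469754-25639423 and RARG at chr12:53604353-53625993. Annotated antisense genes share exon bases with ALDH1A2, ALDH1A3 and RARA, and a long noncoding RNA on the same strand does so with CYP26A1 and CYP26C1, and another with ALDH1A3. The strand setting of the counting is not given in the sources used here, so reads of such pairs cannot be told apart.

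Levels are given as TPM (relative abundance corrected for transcript length) and counts are expected counts, the reads RSEM assigned to a gene. Each library held 19454543 to 23036426 expected counts in all, and a floor of 3 counts corresponded to 0.130 to 0.154 CPM (counts scaled to library totals of 1000000). Differences between conditions are log2 fold changes with standard errors from edgeR's quasi-likelihood test on 15517 genes with enough counts, called at an adjusted p under 0.05, and positive values are higher in NMP-L cells. Of all tested genes 8653 were called (55.8%), 4512 higher (29.1%) and 4141 lower (26.7%), so a call alone sets no gene apart. Of the 10 retinoic acid genes 8 were tested, of which ALDH1A2, RARA and CRABP2 were higher, CYP26A1, DHRS3 and RARG were lower, and ALDH1A3 and RARB did not pass. CYP26B1 and CYP26C1 had too few counts for the test. CYP26A1 and DHRS3 fell by at least 2-fold, as did 9.18% of tested genes, and ALDH1A2 and CRABP2 rose by at least 2-fold, as did 9.38%. The median size of the log2 change was 1.04 over the 8 tested genes and 0.40 over all tested genes.

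These directions are relative to the bulk of the transcriptome. Scaling libraries to GAPDH counts instead moved the median of all genes by 0.56 on the log2 scale and made 87.5% of all calls higher, and scaling to HPRT1 moved it by -0.30 and made 25.3% higher, against 52.1% with the scaling used throughout. The 3 genes called lower stayed lower and CRABP2 and ALDH1A2 stayed higher under both, whereas RARA missed the threshold with HPRT1 (0.44, adjusted p = 0.0862) and ALDH1A3 passed it with GAPDH (0.58, adjusted p = 0.00612).

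**Figure D2:**
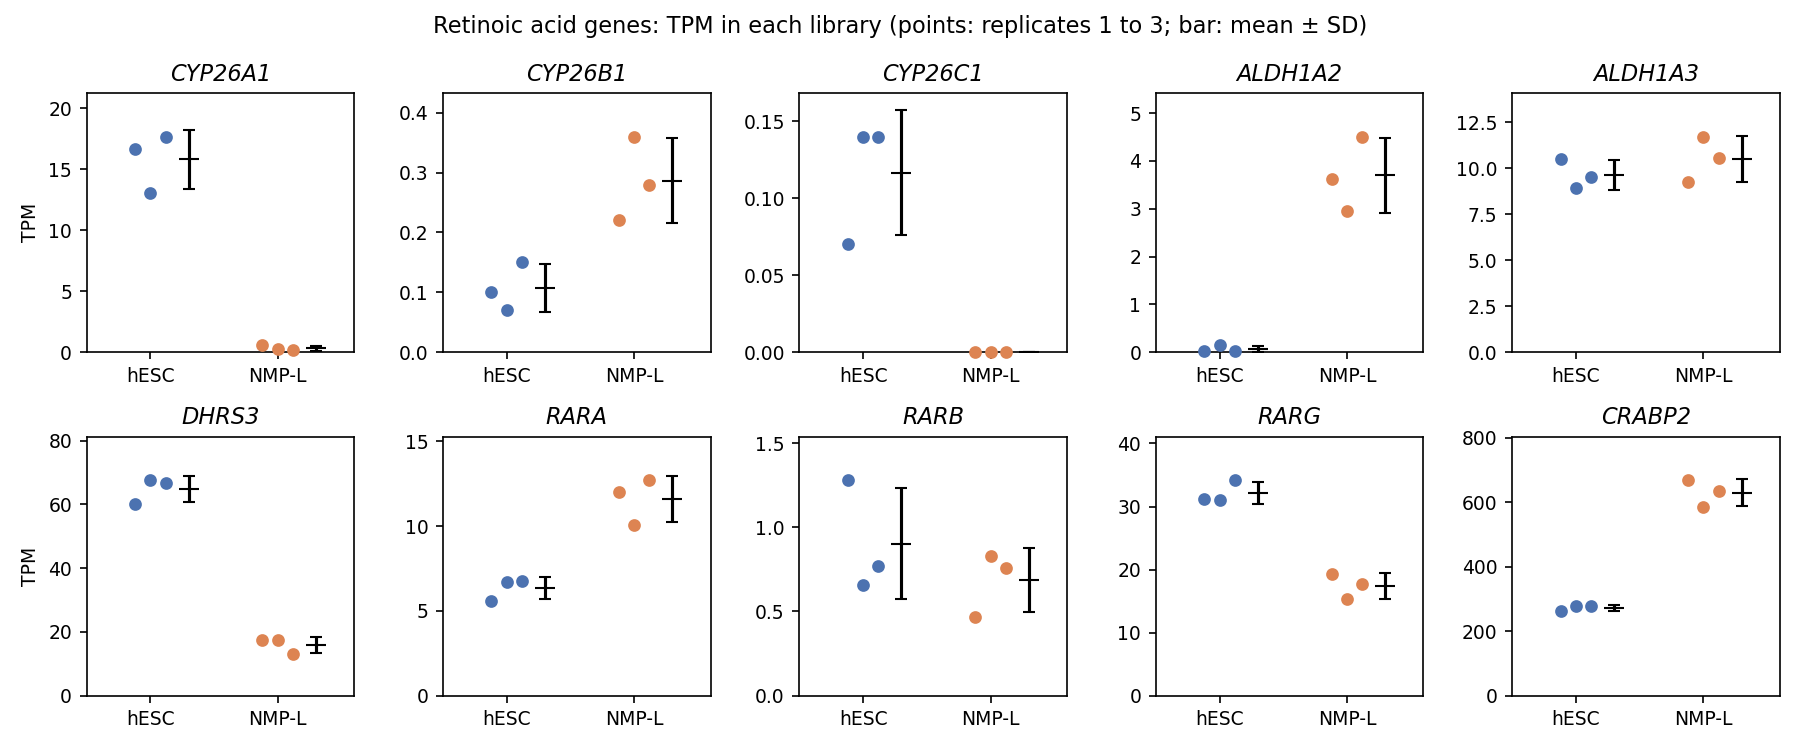
TPM of the 10 genes in each library, with hESC replicates in blue, NMP-L replicates in orange, and the mean ± SD of 3 libraries as a black bar; each panel has its own axis from 0. CYP26A1, DHRS3 and RARG were lower and ALDH1A2, RARA and CRABP2 higher in all 3 NMP-L libraries, while ALDH1A3 and RARB overlapped.

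The degrading enzymes were dominated by CYP26A1 in hESCs, and its transcripts were almost gone in NMP-L cells. CYP26A1, the main inducible hydroxylase of retinoic acid, had 315, 267 and 345 counts in hESCs and 12, 6 and 3 in NMP-L cells. In TPM these were 16.65, 13.07 and 17.66 against 0.56, 0.29 and 0.14. The lowest hESC library therefore stood far above the highest NMP-L library, and the last NMP-L library was at the floor. Its mean level went from 15.8 ± 2.41 TPM (SD, n = 3), above 54.3% of tested genes, to 0.330 ± 0.213 TPM, above 2.62% of them. The log2 change of CYP26A1 was -5.67 (SE 0.27, 95% interval -6.20 to -5.13), a 50.8-fold lower level (edgeR adjusted p = 2.0e-08), and it became -6.29 without NMP-L replicate 1. Of the 15517 tested genes, 10 fell at least as much, CYP26A1 included. In bulk RNA, fewer cells with a transcript and less of it per cell cannot be told apart.

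CYP26B1, the paralogue used mainly in hindbrain, limb and skeleton, was low throughout. It had 4, 3 and 6 counts in hESCs and 10, 16 and 13 in NMP-L cells, or 0.10, 0.07 and 0.15 TPM against 0.22, 0.36 and 0.28 TPM. All NMP-L libraries were above all hESC libraries, the reverse of the order seen for CYP26A1. Its summed counts of 39 against 13, set against library totals, gave a ratio of 2.70 with an exact interval of 1.41 to 5.51 that covers counting error only. CYP26B1 failed the filter on low counts in the main test. With no such filter its log2 change was 1.34 (SE 0.49, edgeR adjusted p = 0.0371), and when single libraries were left out it was at most 1.62, with an adjusted p of up to 0.0834.

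CYP26C1, which in embryos marks the hindbrain and head mesenchyme, had 1, 2 and 2 counts in hESCs and 0, 0 and 0 in NMP-L cells. None of the 6 libraries exceeded the floor, so no fold is given.

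Summed over the 3 paralogues, CYP26 transcripts amounted to 16.82, 13.28 and 17.95 TPM in hESCs and 0.78, 0.65 and 0.42 TPM in NMP-L cells. CYP26A1 held 98.6% ± 0.34 (SD, n = 3) of this sum in hESCs. Its share in the NMP-L libraries was 71.8%, 44.6% and 33.3%, with CYP26B1 holding all of the rest, so CYP26A1 and CYP26B1 stood at like levels in NMP-L cells. The shares did not overlap between conditions (two-sided exact permutation test, p = 0.1, the smallest that 3 libraries against 3 can give), and the wide spread in NMP-L cells rests on 3 to 16 counts per gene and library.

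The synthesis enzymes behaved differently from each other. ALDH1A2 (RALDH2), the main retinoic acid synthesising enzyme of early embryonic mesoderm, had 1, 5 and 1 counts in hESCs and 131, 101 and 165 in NMP-L cells. This corresponded to 0.03, 0.15 and 0.03 TPM against 3.62, 2.96 and 4.51 TPM. A transcript at the edge of detection in hESCs was thus counted in over 100 reads in each NMP-L library. The log2 change of ALDH1A2 was 5.52 (SE 0.38), a 45.9-fold higher level (edgeR adjusted p = 3.3e-07), and 37 tested genes rose at least as much, ALDH1A2 included. Because the hESC level rests on 7 counts in all, the ratio of summed counts per library total was 51.0 with an exact counting interval of 24.5 to 127.6, and without hESC replicate 2 the log2 change was 6.64. Even after this rise ALDH1A2 stood above 24.0% of tested genes only.

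ALDH1A3 (RALDH3), known for its part in eye, nasal and forebrain development, had 337, 309 and 313 counts in hESCs and 345, 410 and 382 in NMP-L cells. Its levels were 10.48, 8.90 and 9.49 TPM against 9.22, 11.71 and 10.55 TPM, and the libraries of the conditions overlapped. The log2 change was 0.02 (SE 0.12, edgeR adjusted p = 0.90), with a 95% interval from -0.22 to 0.26. ALDH1A3 remained the more abundant of the pair in every library. ALDH1A2 made up 0.753% ± 0.78 of their summed TPM in hESCs and 26.1% ± 5.21 in NMP-L cells (SD, n = 3, exact permutation p = 0.1). The sum of both was 9.69 ± 0.745 TPM in hESCs and 14.2 ± 1.19 TPM in NMP-L cells.

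Set within each library, the summed level of ALDH1A2 and ALDH1A3 was 0.625, 0.681 and 0.530 times the summed CYP26 level in hESCs. In NMP-L cells it was 16.5, 22.6 and 35.9 times the CYP26 level. The ratio of these synthesis transcripts to degradation transcripts therefore moved from below 1 in every hESC library to above 16 in every NMP-L library (exact permutation p = 0.1). The CYP26 sum in NMP-L cells was only 0.42 to 0.78 TPM, from 3 to 16 counts of CYP26A1 or CYP26B1 per library. The size of the ratio there is therefore imprecise. This ratio is of transcripts and is free of scaling between libraries. It leaves out ALDH1A1, which stood at 1.34 ± 0.117 TPM in hESCs and 0.350 ± 0.121 TPM in NMP-L cells (SD, n = 3). Retinoic acid itself was not measured in these libraries.

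**Figure D3:**
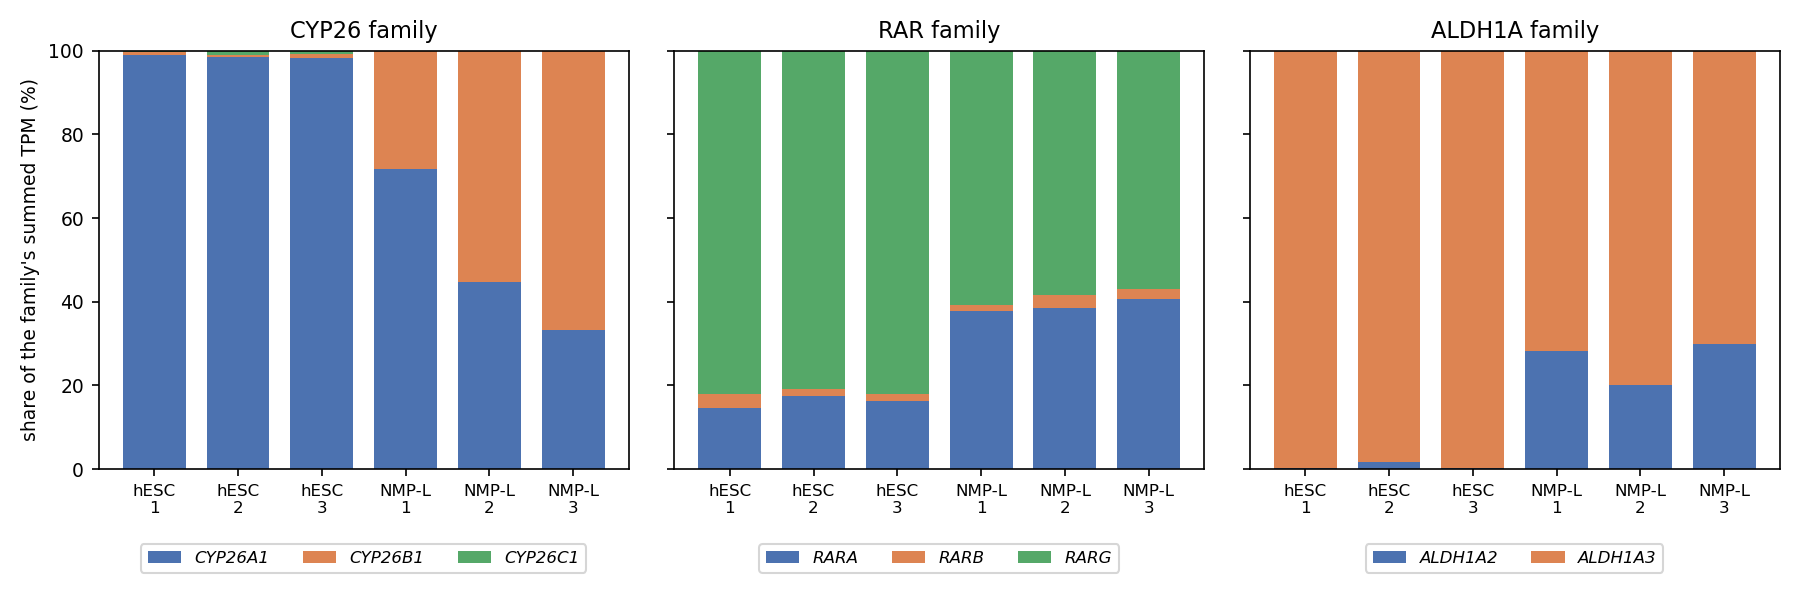
Share of each family's summed TPM (%) held by each paralogue, with 1 bar per library and colours defined under each panel. The ALDH1A panel holds ALDH1A2 and ALDH1A3 only. CYP26A1 filled over 98% of the CYP26 bar in hESCs and 33.3% to 71.8% in NMP-L cells, the RARA share rose from 16.1% to 39.0% on average, and ALDH1A2 appeared in the NMP-L bars.

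DHRS3, which reduces retinal back to retinol and so draws substrate away from retinoic acid synthesis, had 811, 993 and 917 counts in hESCs and 267, 259 and 207 in NMP-L cells. In TPM the values were 60.30, 67.64 and 66.82 against 17.45, 17.46 and 13.01. Every NMP-L library lay well under every hESC library. DHRS3 fell by 2.11 on the log2 scale (SE 0.14), a 4.32-fold lower level (edgeR adjusted p = 2.3e-07), and went from above 84.7% of tested genes to above 52.0%. CYP26A1 and DHRS3, the genes of the 10 whose products lower retinoic acid and that had enough counts to test, thus both fell.

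CRABP2, which carries retinoic acid in the cytoplasm and delivers it to receptors in the nucleus, was the most abundant of the 10 genes in each condition. Its counts were 2313, 2641 and 2537 in hESCs and 6813, 5609 and 6551 in NMP-L cells, or 262.37, 277.76 and 277.05 TPM against 668.50, 584.89 and 635.46 TPM. Replicates lay close together and the conditions did not overlap. The log2 change was 1.11 (SE 0.08), a 2.16-fold higher level (edgeR adjusted p = 5.6e-07), and CRABP2 stood above 96.6% of tested genes in hESCs and 98.7% in NMP-L cells.

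Among the receptors RARG fell and RARA rose, so that their levels came closer together. RARG, the receptor most associated with pluripotent and early caudal cells, had 759, 814 and 848 counts in hESCs and 536, 407 and 503 in NMP-L cells. These were 31.25, 31.06 and 34.19 TPM against 19.37, 15.28 and 17.75 TPM. RARG fell by 0.97 on the log2 scale (SE 0.10, edgeR adjusted p = 1.2e-05), a 1.96-fold lower level.

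RARA, the most widely expressed of the receptors, had 169, 218 and 213 counts in hESCs and 414, 326 and 446 in NMP-L cells. These were 5.59, 6.71 and 6.77 TPM against 12.01, 10.06 and 12.71 TPM. Its log2 change was 0.75 (SE 0.13, edgeR adjusted p = 0.00045), a 1.68-fold higher level. The libraries of the conditions did not overlap for RARA or RARG, which was so for 61.6% of all tested genes.

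RARB, itself a well known target of retinoic acid through the DR5 element near its start, had 32, 20 and 21 counts in hESCs and 15, 25 and 24 in NMP-L cells. Its levels of 1.28, 0.66 and 0.77 TPM and of 0.47, 0.83 and 0.76 TPM overlapped. The log2 change was -0.42 (SE 0.31, edgeR adjusted p = 0.28) with a 95% interval from -1.03 to 0.20, so a fall of up to about 1 or a small rise was not distinguishable at these counts. CYP26A1 and RARB, the genes with a DR5 close to the start, therefore had different outcomes, a fall far outside the spread and no detectable difference.

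The receptors summed to 39.4 ± 2.00 TPM in hESCs and 29.7 ± 3.11 TPM in NMP-L cells (SD, n = 3). RARG held 81.6% ± 0.65 of this sum in hESCs and 58.7% ± 2.00 in NMP-L cells, and RARA 16.1% ± 1.40 and 39.0% ± 1.57. Each of these shares separated the conditions completely (exact permutation p = 0.1). The RARB share was 2.31% ± 0.91 and 2.36% ± 0.85 (exact permutation p = 1.0).

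In hESCs the order of mean TPM was CRABP2, DHRS3, RARG, CYP26A1, ALDH1A3, RARA, RARB, CYP26C1, CYP26B1 and ALDH1A2, and neighbours overlapped only among the last 3. In NMP-L cells the order was CRABP2, RARG, DHRS3, RARA, ALDH1A3, ALDH1A2, RARB, CYP26A1, CYP26B1 and CYP26C1. There the libraries of RARG and DHRS3, of RARA and ALDH1A3, of RARB and CYP26A1 and of CYP26A1 and CYP26B1 overlapped. CYP26A1 moved from the fourth place to the eighth and ALDH1A2 from the last to the sixth.

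**Figure D4:**
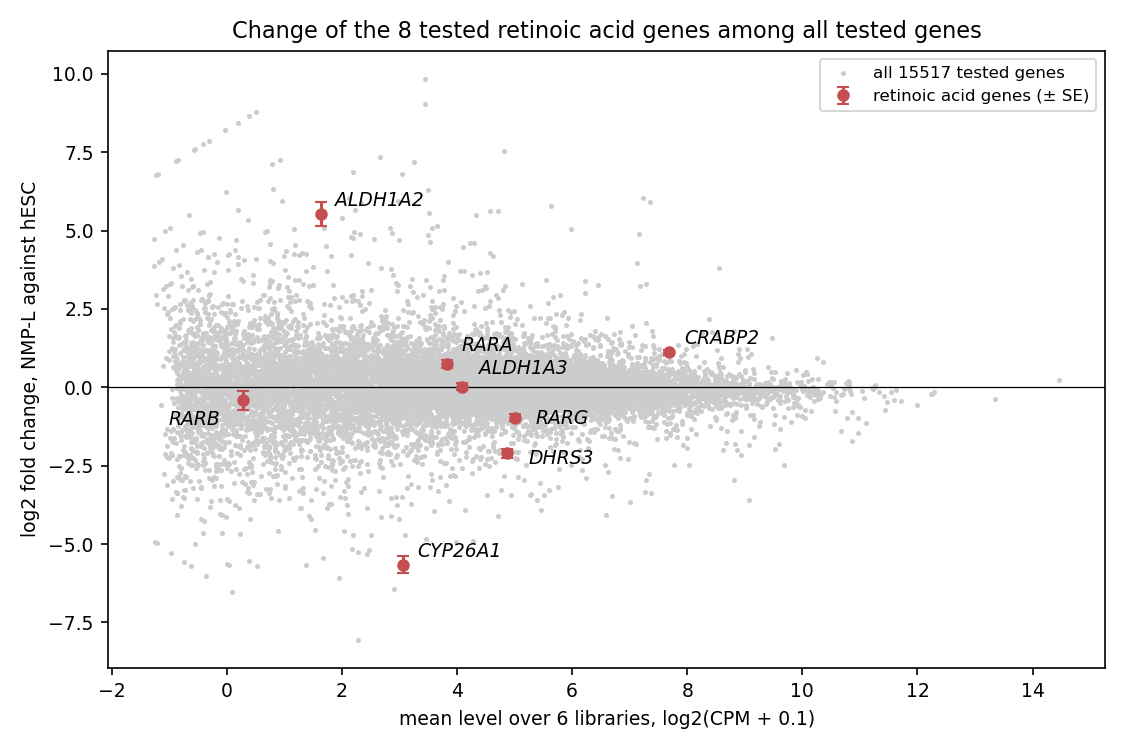
Log2 fold change (NMP-L against hESC) of all 15517 tested genes (grey) against mean level as log2(CPM + 0.1), with the 8 tested retinoic acid genes in red and bars of ± SE. CYP26A1 at -5.67 and ALDH1A2 at 5.52 lie at the outer edges of the cloud, and ALDH1A3 at 0.02 lies on the zero line.

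The steps before and after these 10 genes were described with 5 lists of other pathway genes. For each list the calls of the same test are given beside the background of 29.1% higher and 26.7% lower. Of 17 genes of retinoid uptake and storage 9 were tested, with 3 higher, 3 lower and a median log2 change of 0.01, against 0.03 over all tested genes. LRAT, which esterifies retinol for storage, had 568, 544 and 526 counts in hESCs and 5516, 6481 and 7011 in NMP-L cells. Its level went from 11.8 ± 0.804 TPM to 124.8 ± 15.5 TPM (SD, n = 3), with a log2 change of 3.31 (SE 0.10, edgeR adjusted p = 1.2e-09). STRA6, the membrane receptor that takes up retinol, rose by 2.43 (SE 0.14), from 83, 97 and 98 counts to 644, 466 and 646. LRAT and STRA6 thus rose together in uptake and esterification of retinol, and the list's summed TPM went from between 144.3 and 157.2 to between 425.0 and 451.3. LPL, a lipase of lipoproteins, fell by 1.19 (SE 0.24), and RBP7 and DGAT1 fell as well.

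Of 25 retinol and retinal dehydrogenases and reductases 15 were tested, with 6 higher, 2 lower and 7 not called, and 8 exceeded the floor in none of the 6 libraries. RDH10, the main retinol dehydrogenase of the embryo, rose by 1.52 (SE 0.15, edgeR adjusted p = 5.4e-06), from 103, 98 and 125 counts to 317, 332 and 450. RDH8 (log2 change 2.01, SE 0.43) and SDR16C5 (log2 change 1.57, SE 0.44) also passed, at no more than 25 counts in any library, and SDR16C5 missed the threshold without hESC replicate 3 (1.22, adjusted p = 0.0534). ALDH1A1, the third RALDH enzyme, fell by 2.02 (SE 0.32, edgeR adjusted p = 0.00024), from 26, 30 and 32 counts to 8, 11 and 6. This split depended on scaling, with 12 higher and 1 lower when libraries were scaled to GAPDH and 3 higher and 2 lower when scaled to HPRT1.

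The list of other binding proteins and receptor partners had 6 genes, of which 5 were tested, 1 was higher and 1 lower. RXRA, the RXR partner with the most general role, had a log2 change of 0.33 (SE 0.10, edgeR adjusted p = 0.019). It missed the threshold when hESC replicate 1 or 2 or NMP-L replicate 1 or 2 was left out (adjusted p between 0.0521 and 0.0698) and with HPRT1 scaling (0.02, adjusted p = 0.956). FABP5, which carries fatty acids and can pass retinoic acid to PPARD, had a log2 change of -0.29 (SE 0.08, edgeR adjusted p = 0.0083), which turned to 0.27 with GAPDH scaling. CRABP1, named after its values were seen because it is the paralogue of CRABP2, stood at 267 ± 8.31 TPM in hESCs and 321.5 ± 21.3 TPM in NMP-L cells (log2 change 0.17, SE 0.09, edgeR adjusted p = 0.13), and whether it was called higher depended on the setting. CRABP1 and CRABP2 were thus at like levels in hESCs, and CRABP2 stood well above CRABP1 in NMP-L cells. RXRG had 0, 0 and 0 counts in hESCs and 7, 1 and 4 in NMP-L cells, too few for the test.

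Of 16 receptor coregulators 15 were tested, with 4 higher, 4 lower and 7 not called. NRIP1, a ligand-dependent corepressor that is itself induced by retinoic acid, rose by 1.897 on the log2 scale (SE 0.14, edgeR adjusted p = 6.1e-07), from 496, 333 and 427 counts to 1696, 1679 and 2135. The other calls were smaller, with TBL1X at 0.71 (SE 0.08), HDAC3 at -0.55 (SE 0.09) and PRMT1 at -0.49 (SE 0.09). With GAPDH scaling 10 coregulators were higher, HDAC3 and PRMT1 being at 0.01 and 0.06, and with HPRT1 scaling 1 was higher and 5 lower, so the direction of HDAC3 and PRMT1 depended on the scaling, while TBL1X was positive under both (1.27 and 0.41).

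Of 28 genes known to respond to retinoic acid 10 were tested and all 10 were called, 3 higher and 7 lower, with a median log2 change of -0.69. CDX1, a caudal homeobox gene that responds to retinoic acid, Wnt and FGF signals, went from 0, 0 and 4 counts to 312, 202 and 321. Its log2 change was 7.35 (SE 0.43, edgeR adjusted p = 9.9e-08), and 11.0 without hESC replicate 3, which held all of its hESC counts. TSHZ1 rose by 1.91 (SE 0.36), and RARRES2, a secreted chemoattractant first found as a retinoid responder, fell by 1.39 (SE 0.10, edgeR adjusted p = 5.5e-07). Among the others that fell were RARRES3, TGM2, RAI14, RET and OTX2. With GAPDH scaling 3 were higher and 3 lower, and with HPRT1 scaling 3 were higher and 7 lower. Genes of this list therefore moved in both directions while CYP26A1 fell and RARB did not differ detectably. The list was not divided by whether retinoic acid raises or lowers a gene, so these counts give no direction of the response.

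**Figure D5:**
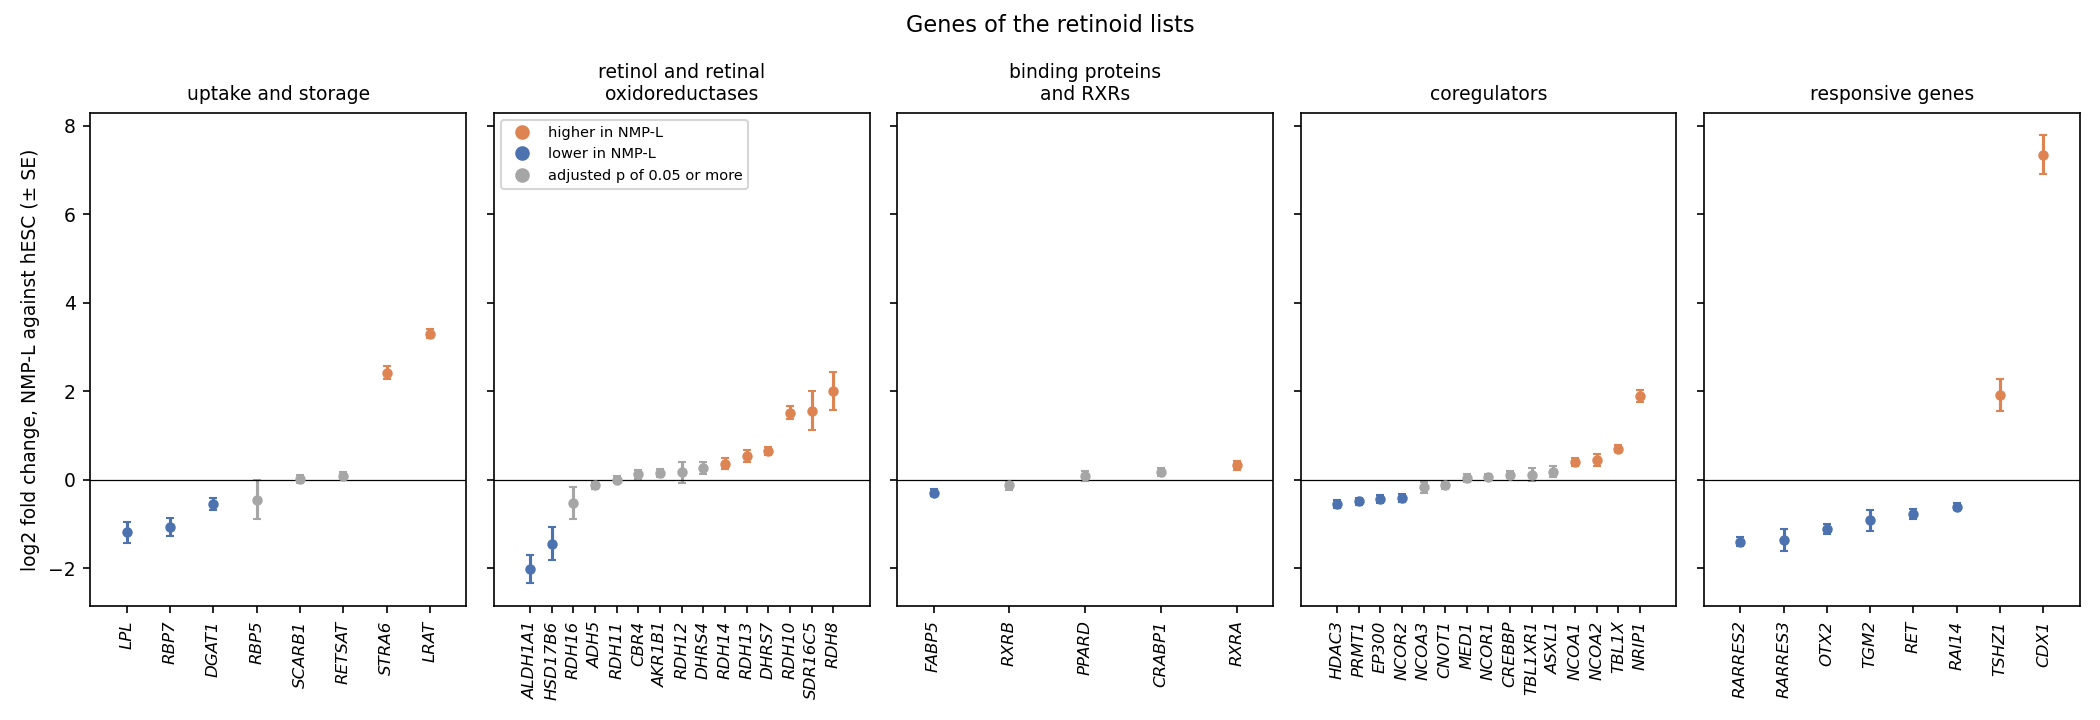
Log2 fold change (NMP-L against hESC) with ± SE of tested genes of the 5 lists that are reported here, 1 panel per list, in orange where called higher, blue where called lower and grey where not called. LRAT and STRA6 lead the uptake panel at 3.31 and 2.43, and CDX1 stands apart in the last panel at 7.35.

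Of 9 pluripotency markers 7 were lower, POU5F1 by a log2 change of -0.92 and NANOG by -2.59 (edgeR adjusted p = 1.2e-06 and 2.9e-09), and summed TPM went from 7237-7604 to 4548-4750. Of 9 tested neuromesodermal and caudal epiblast markers 7 were higher, among them T (Brachyury) with 0, 0 and 2 counts in hESCs and 537, 293 and 629 in NMP-L cells. FGF17 of the same list was lower (log2 change -2.89, SE 0.28, edgeR adjusted p = 5.4e-06), and FGF8, with 4, 11 and 7 counts in hESCs and 3, 2 and 1 in NMP-L cells, was too low to test. Since ALDH1A2 is best known from paraxial mesoderm, markers of that tissue are set beside it. Of 10 such markers 5 were tested, with 3 lower and the others not called, summed TPM was 32.5 to 38.2 in hESCs and 15.2 to 18.6 in NMP-L cells, and MSGN1 had 7, 4 and 2 counts in NMP-L cells and none in hESCs. Of 8 endoderm markers 3 were tested and FOXA2 and EOMES were higher, with summed TPM of 2.37 to 3.55 and of 16.3 to 28.9. Most of the NMP-L sum was FOXA2 (0.103 ± 0.111 TPM in hESCs and 17.2 ± 5.26 TPM in NMP-L cells, SD, n = 3). CXCR4 was not called, and SOX17 had at most 1 count in any library. Summed TPM of neural progenitor and neuron markers was 266.2 to 298.8 and 166.0 to 187.7 (1 of 5 tested higher, 2 lower). Most of that sum was TUBB3, a tubulin of neurons (273 ± 17.0 TPM and 163.8 ± 11.0 TPM, SD, n = 3), whereas the neural progenitor gene SOX1 rose from 0.203 ± 0.111 TPM to 5.94 ± 0.934 TPM (log2 change 4.72, SE 0.27, edgeR adjusted p = 7.6e-08). Summed TPM of neural crest markers was 24.9 to 29.6 and 3.99 to 4.79 (1 of 4 tested higher, 2 lower). Most of the hESC sum was FOXD3 (21.4 ± 2.66 TPM in hESCs and 0.783 ± 0.122 TPM in NMP-L cells, SD, n = 3). SOX10 also fell (log2 change -1.08, SE 0.17), whereas SNAI2 rose (log2 change 2.34, SE 0.49) at no more than 16 counts in any library. The part of mixed cell types in the changes of the retinoic acid genes was not tested.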

How the data were processed

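The authors deposited 1 table with RSEM expected counts and TPM per gene for each of 6 libraries. The expected counts are not normalised between libraries, and the TPM values are scaled by the authors for effective transcript length and to 1000000 per library. The submitters' processing notes name cutadapt 1.9.1, STAR 2.5.2a, RSEM 1.3.0, DESeq2 1.12.3 and hg19. The annotation and the strand setting are not given in the sources used here. Every per-sample column was used (0 left out), and 8.44% of all genes but 0 of the 10 genes had fractional counts.

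Expected counts were rounded. The edgeR package (4.0.16, in R 4.3.3) was used with filterByExpr at its minimum count of 10, which kept 15517 of 27672 genes, TMM scaling, glmQLFit and glmQLFTest, two-sided, with Benjamini-Hochberg adjustment over all tested genes. A standard error is the log2 fold change divided by the square root of F. Shares, sums and ratios of TPM were compared with two-sided exact permutation tests in scipy 1.17.1, which cannot give a p under 0.1 with 3 libraries against 3. Intervals of count ratios and the floor of 3 counts cover counting error only. DESeq2 1.42.0 and limma 3.58.1 on log2(TPM + 0.1) and log2(TPM + 1) were alternatives, with other scalings, filters, a replicate block and each library left out. The test was checked on simulated counts.

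Symbols were matched to GENCODE release 44 mapped to GRCh37 (10 of 10 found), promoters to RefSeq on GRCh38.p14 (10 of 10 found). The 10 genes, the lists and the tests were chosen with earlier results of these data known. In each pathway list up to 4 called genes with the largest log2 change were named, with the 5 tested genes nearest to CYP26A1. Some list genes count in the totals but are not reported here by name. Neither protein sequences nor retinoid levels were analysed here.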

Additional observations from a re-analysis of the deposited data

How the results depend on the processing

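Of 429 recomputed log2 changes 400 changed neither direction nor side of the threshold. The number of retinoic acid genes called stayed between 4 and 7 (6 in the main test), with 2 to 4 higher and 2 to 3 lower. It was 4 when at least 10 counts were required in every library, since CYP26A1 and ALDH1A2 then leave the test. The log2 change ranged from -6.29 to -3.66 for CYP26A1, from 2.12 to 6.64 for ALDH1A2, from -2.41 to -1.56 for DHRS3, from -1.28 to -0.42 for RARG and from 0.81 to 1.67 for CRABP2, and each passed wherever it could be tested. ALDH1A3 changed sign with RLE factors (-0.001), HPRT1 scaling (-0.272), DESeq2 (-0.001) and when libraries were left out (-0.086 to 0.087, negative at -0.019 and -0.009 too), and RARB was at 0.138 with GAPDH scaling; none of these passed. CRABP1 turned to -0.124 with HPRT1 scaling but was called higher with library size only (0.245, adjusted p = 0.0362), GAPDH scaling (0.723, adjusted p = 0.00013), limma on TPM (0.264 and 0.265) and without NMP-L replicate 3 (0.256, adjusted p = 0.0318), and FABP5, HDAC3 and PRMT1 to 0.265, 0.007 and 0.063 with GAPDH scaling. Called dehydrogenases and reductases numbered 13 with GAPDH, 5 with HPRT1 and 4 when no library was allowed under 10 counts (8 in the main test). Called binding proteins and partners numbered 4, 1 with HPRT1 and between 1 and 3 when a library was left out (2 in the main test). Called responsive genes numbered 6 with GAPDH (10 in the main test). The difference in RARB share was 0.054 percentage points and -0.352 to 0.579 when a library was left out (-0.241 and -0.177 in others). Except that fewer genes or libraries enter some of these fits, the cause was not tested.

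Libraries with the same replicate number did not deviate together (correlations of -0.366, -0.058 and -0.133). With 3 libraries per condition this check cannot settle whether the numbers pair the libraries, and the sources used here do not say. A fit with the replicate number as a block called 7560 genes against 8653, and 1 gene of the binding list against 2, RXRA having an adjusted p of 0.0633. Over all settings 7087 to 11455 genes were called. Depth limits CYP26B1, CYP26C1 and RARB, with at most 32 counts in any library.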

Other observations

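The genes whose pattern over the 6 libraries lay nearest to that of CYP26A1, by Euclidean distance between gene-centred log2 CPM, were ACTN3 (distance 0.994), FAM71F1 (1.05), MYCT1 (1.18), INHBA (1.25) and CCL26 (1.34). ACTN3, a muscle alpha-actinin, fell by 4.91 on the log2 scale (SE 0.16), and INHBA, which encodes the activin A subunit, fell by 5.15 (SE 0.25). MYCT1 fell by 6.08 (SE 0.32), FAM71F1 fell by 5.20 (SE 0.25) and the chemokine gene CCL26 fell by 5.44 (SE 0.27). With 3 libraries per condition this likeness mostly reflects the size of the difference between conditions. RBP4, the retinol carrier of blood plasma, had 13, 12 and 9 counts in hESCs and 5, 7 and 5 in NMP-L cells, too few for the test.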
